A study of Mus musculus with 24 samples.

Results

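The 300 genes with the highest mean level in the RNA of plasma extracellular vesicles from sham-operated mice were taken from the 21960 genes of the deposited table. Genes were ranked by mean CPM, a gene's reads scaled to a fixed library total, over the 12 sham libraries, out of 24 libraries in the series, after Lars2 was left out of each library's total. No comparison between groups entered the choice. All mice were male C57BL/6J. The sham animals were the surgical controls of a bile duct ligation study, and 6 of them were sampled at day 8 and 6 at day 15 after the operation. The other 12 libraries came from mice with a ligated bile duct at the same days and served only for comparison. The design text gives 6 animals per group, so each library stood for 1 mouse. Blood was drawn by cardiac puncture into EDTA, plasma was spun at low speed, vesicles were precipitated with ExoQuick, and stranded libraries were made with neither ribosomal RNA depletion nor poly(A) selection. The tissue label read liver for every sample while the site label named vesicles, and the treatment text named ligation for sham mice too, so groups were taken from the sample titles.

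Extracellular vesicles are membrane-bound particles that cells shed into body fluids, carrying protein and RNA of the cell that released them. In plasma many come from blood cells: reticulocytes, the last RNA-bearing stage of the red cell, shed vesicles as they mature, and platelets release them on activation. A polymer precipitation also brings down other particles, and plasma cleared by low-speed spins can still hold platelets, so the values describe RNA of the precipitate.

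Lars2 (chr9:123366927-123462666, plus strand, GRCm38), which encodes the mitochondrial leucyl-tRNA synthetase, held 48.5% ± 2.12 (SD, n = 12) of all sham counts. Ribosomal RNA was not depleted, and whether the counts at this locus come from Lars2 mRNA was not tested. Total counts ran from 101733 to 824640 per sham library, and from 52232 to 442304 without Lars2. The 3 deepest sham libraries were numbers 4 to 6 of day 8, with 535737 to 824640 counts against 101733 to 351201 in the other 9. These 3 also stood apart in their platelet transcripts, and day 15 number 1 stood apart in its matrix and endothelial transcripts, so results that rest on them are given with and without them.

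The 300 genes held 45.4% ± 3.03 (SD, n = 12) of the counts without Lars2. The lowest share was 40.6% (95% exact Clopper-Pearson interval 40.3% to 40.9%) in day 15 number 1, and the highest was 52.0% (51.8% to 52.3%) in day 15 number 2. Such intervals cover counting error only, since reads carried no molecular identifiers. The first 4 genes held 14.6%, the first 20 held 21.7%, the first 100 held 34.1%, and 451 genes were needed to reach 50%. Every one of the 300 had a count in every sham library, and 291 had at least 10 counts in each. At the edge of the set, Arpc5, Syk and Car2 lay just inside with 366.7, 365.0 and 364.7 CPM. Hnrnpk, Eif4a1 and Ttn lay just outside with 364.4, 361.9 and 360.2 CPM. These 6 values differed by far less than the SD between libraries, which was 48.2 to 211 CPM.

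In terms of function, the set was led by hemoglobin and the machinery of translation. Each gene was put in 1 class only. The 4 hemoglobin chains held 13.97% ± 3.43 of the counts, and 78 ribosomal protein genes held 11.8% ± 1.46. Then came 43 cytoskeletal genes with 4.81% ± 0.746, 12 translation factors with 3.35% ± 0.318 and 54 other broadly expressed genes with 3.29% ± 0.188. Signalling genes (32) held 1.87% ± 0.166, platelet genes (22) 1.81% ± 1.27, and red cell genes other than hemoglobin (16) 1.13% ± 0.411. Genes of vessel wall, matrix, fat and liver (15) held 1.01% ± 0.392, and 3 ferritin and iron genes 0.847% ± 0.0823. Genes of white blood cells (8) held 0.567% ± 0.153, 5 predicted genes and pseudogenes 0.569% ± 0.196, and 8 histone genes 0.462% ± 0.0937. All errors are SD over 12 libraries.

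**Figure D1:**
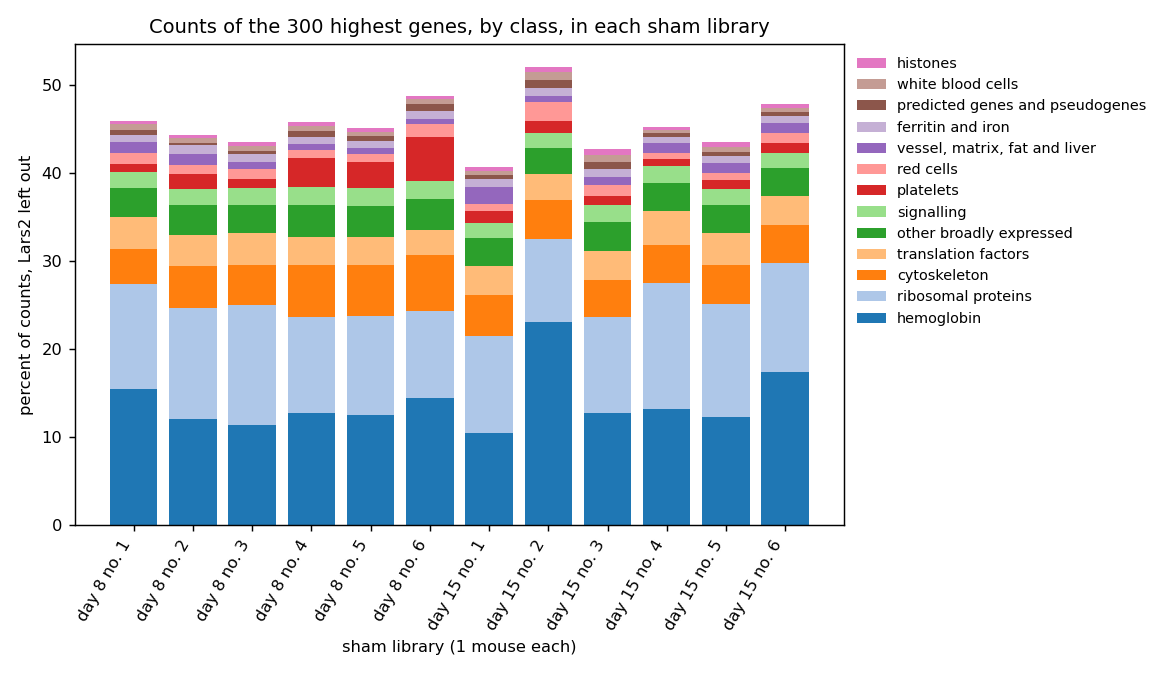
Percent of counts, with Lars2 left out, that each class of the 300 highest genes held in each of the 12 sham libraries (bars, stacked by class). Hemoglobin ranged from 10.5% to 23.1%, ribosomal proteins from 9.37% to 14.3%, and the platelet segment was tallest in day 8 numbers 4 to 6.

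Hemoglobin carries oxygen in red cells as a tetramer of paired alpha and beta chains, and adult C57BL/6 mice make the alpha chains from Hba-a1 and Hba-a2 and the beta chains from Hbb-bs and Hbb-bt. Hbb-bs (chr7:103826534-103828096, minus strand) was the highest gene by mean CPM, with 38530 CPM in the lowest library, a median of 47071 and 88956 in the highest. Hba-a2 (chr11:32296489-32297298, plus strand) ran from 36851 through a median of 43402 to 74586 CPM. Hba-a1 averaged 31723 ± 7653 CPM and Hbb-bt 9053 ± 3203 CPM (SD, n = 12). Day 15 number 2 was the highest library for all 4 chains and day 15 number 1 the lowest for all 4. CPM ranks are not corrected for gene length, so a long gene ranks higher than a short one with as many transcripts. On a scale per kilobase of exon the order of levels was Hba-a2, Hbb-bs, Hba-a1, Hbb-bt, the predicted gene Gm20594, Eef1a1, Rplp1, Tmsb4x, Actb and Ftl1.

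The 2 members of each globin pair could be told apart by reads only at few places. Coding sequences of Hba-a1 and Hba-a2 matched at 428 of 429 bases, and those of Hbb-bs and Hbb-bt at 443 of 444. The stretches below, from GENCODE M21 transcripts, show the single differing coding base in capitals, at coding base 381 of the alpha genes and 417 of the beta genes. They are shown because the split of reads within a pair rests on such bases and on the untranslated ends.
Hba-a1: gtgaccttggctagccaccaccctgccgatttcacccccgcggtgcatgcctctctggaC
Hba-a2: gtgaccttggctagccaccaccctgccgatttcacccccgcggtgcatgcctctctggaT
Hbb-bs: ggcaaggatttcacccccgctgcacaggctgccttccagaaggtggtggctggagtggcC
Hbb-bt: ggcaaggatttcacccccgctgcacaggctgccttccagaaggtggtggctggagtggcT
Levels of single chains are therefore uncertain, while sums over a pair do not depend on the split. Alpha chains together held 7.85% ± 1.80 of counts and beta chains 6.11% ± 1.65. Their ratio was 1.30 ± 0.0707, from 1.18 to 1.44, a coefficient of variation of 0.0546 against 0.229 for the alpha share and 0.270 for the beta share. The deposited counts put 59.7% ± 1.27 of the alpha counts on Hba-a2 and 85.4% ± 1.89 of the beta counts on Hbb-bs.

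The other red cell genes were 16 of the 63 list members in the table, and 62 of the 63 had a sham count. Alas2, the erythroid enzyme that starts heme synthesis, ran from 1310 through a median of 1560 to 3336 CPM. Fech, which ends heme synthesis by inserting iron, averaged 528 CPM, and Slc25a37, which carries iron into the mitochondrion, 500 CPM. Membrane and skeleton genes included Epb41 (protein 4.1) with 1199 CPM, Sptb (beta spectrin) with 416 CPM and Slc4a1 (band 3, the anion exchanger). Slc4a1 spread more than Alas2, from 208 through a median of 491 to 1765 CPM. The highest library for both was again day 15 number 2. Bpgm, whose product lowers the oxygen affinity of hemoglobin, averaged 697 CPM, and Car2, a carbonic anhydrase, 365 CPM. Other members of the class were Gpx1 (977 CPM), Fam46c (963 CPM), Mkrn1 (937 CPM) and Bnip3l (445 CPM), which acts in the clearance of mitochondria from reticulocytes. The ferritin chains, the iron store of most cells, were both among the 20 highest genes, Ftl1 with 4210 ± 615 CPM and Fth1 with 3778 ± 511 CPM.

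Ribosomal proteins were the largest class by number: 78 of the 86 in the table were among the 300. Rpsa led by CPM with 3470, followed by Rplp0 with 3221, Rpl4 with 2769, Rpl13a with 2656, Rps4x with 2634 and Rps24 with 2623. Of the 64 translation factors in the table, 12 were in the set. They were led by Eef1a1, which brings aminoacyl-tRNA to the ribosome, with 15317 ± 1824 CPM, and included Tpt1 (4968 ± 952), Eef2 (4931 CPM), which moves the ribosome along, and Pabpc1 (2900 CPM), which binds poly(A) tails. Eef1a1 lay between 11879 and 17974 CPM over the 12 libraries, with a median of 15886, and the lowest library was day 8 number 6.

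Many mRNAs of the translation apparatus begin with a run of pyrimidines at the start site, known as the 5′ terminal oligopyrimidine element. As a plain letter search, the 30 bases on either side of each RefSeq start (GRCm38.p6) were scanned on both strands for 4 motifs of 6 letters that can overlap one another. These were the motif CTTTCC, its variant with a longer thymine run CTTTTC, the shifted form beginning with a cytosine pair CCTTTC, and a form with an inner cytosine CTCTTT. Of 78 ribosomal protein genes, 57 matched a RefSeq window, and 26 of these (45.6%) held a motif on the sense strand and 4 (7.02%) on the other strand. In the other 210 genes of the set outside translation, 154 matched, and 18 (11.7%) held one on the sense strand and 18 on the other strand, against sense-strand shares of 8.64% of the 11167 matched table genes with a sham count and 7.97% of all 32851 windows. Of 8 matched translation factors 1 held a motif. A match is a description of letters and not evidence of a working element. A window without a match does not show that the mRNA lacks the element, since only annotated RefSeq starts were scanned. The windows below are genes among the 20 highest, with motif letters in capitals where present.
Rpsa, chr9:120127736-120127795, plus strand: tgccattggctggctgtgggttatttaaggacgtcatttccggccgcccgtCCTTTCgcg
Rpl4, chr9:64173357-64173416, plus strand: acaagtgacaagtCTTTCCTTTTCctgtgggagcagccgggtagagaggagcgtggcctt
Rplp0, chr5:115559437-115559496, plus strand: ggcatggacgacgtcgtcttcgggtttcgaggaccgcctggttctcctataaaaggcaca
Eef1a1, chr9:78481695-78481754, minus strand: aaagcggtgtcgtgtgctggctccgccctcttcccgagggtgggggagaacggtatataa
Hbb-bs, chr7:103827899-103827958, minus strand: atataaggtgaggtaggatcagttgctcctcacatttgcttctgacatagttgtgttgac
Rpl4 carried 2 overlapping motifs and Rpsa 1, while Rplp0, Eef1a1 and Hbb-bs carried none of these letters in this window. The motifs of Rpl4 lay before the annotated start and that of Rpsa after it, so neither gene had a motif beginning at that start. In Rplp0 and Eef1a1 a TATA-like run lay after the annotated start, whereas in Hbb-bs it lay before. The start sites of Rplp0 and Eef1a1 are therefore uncertain, and nothing is read from their lack of a motif.

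Replication-dependent histone mRNAs end in a stem-loop in place of a poly(A) tail, and the libraries were made without poly(A) selection per the labels' protocols. Among 68 listed genes of this kind, 6 were in the set: Hist1h1c (935 CPM), Hist1h4h (483 CPM), Hist1h4c (441 CPM), Hist1h1e (420 CPM), Hist1h4d (381 CPM) and Hist1h4n (378 CPM). This number depended on the ranking. Over other scalings, per kilobase of exon among them, set sizes and sets of libraries it ran from 0 to 36. With 1 sham library left out it was 4 to 6. The whole list held 0.464% to 1.99% of counts in the sham libraries. H1 genes encode linker histones and H4 genes a core histone. The transcripts of all 6 held the 16-letter stem-loop pattern, the arm GGNNCT followed by the loop TTTN and the arm AGNGCC (N is any base, transcript strand only), as did 42 of 67 listed genes with a transcript (62.7%) and 5 of 21158 other genes (0.0236%). The sites are shown with 6 bases on each side, since they set these mRNAs apart from the rest of the set. Capitals mark the pattern.
Hist1h4h: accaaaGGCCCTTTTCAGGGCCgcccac
Hist1h4n: actaaaGGCCCTTTTCAGGGCCatccaa
Hist1h1c: ccaaaaGGCTCTTTTCAGAGCCaccact
Hist1h1e: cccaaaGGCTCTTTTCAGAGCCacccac
The 4 H4 sites share 1 stem sequence and the 2 H1 sites another. The annotated transcripts ran on after the site, for 31 bases in Hist1h4n and 46 in Hist1h4h. The run was 454 bases in Hist1h4c, 770 in Hist1h4d, 840 in Hist1h1c and 1153 in Hist1h1e. Whether the counted RNAs end at the stem-loop was not tested. Coding sequences of the H4 copies matched each other at 289 to 302 of 312 bases, so the split among copies is uncertain. Hist1h4h ran from 222 to 1051 CPM and Hist1h4n from 185 to 813 CPM, and for both day 15 numbers 2 and 3 were the 2 highest libraries. The replacement histones H3f3a (1017 CPM) and H3f3b (565 CPM), whose mRNAs are polyadenylated, completed the class, and neither held the pattern.

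The cytoskeletal class was led by the cytoplasmic actins and by thymosin beta 4, which binds actin monomers. Actb averaged 10890 ± 2861 CPM, Tmsb4x 6141 ± 2013 CPM and Actg1 3276 CPM. Actb lay between 14270 and 16442 CPM in the 3 deepest libraries and between 7993 and 10901 in the other 9, so the 2 ranges did not meet. Large scaffold proteins followed with Myh9 (2087 CPM), Sptbn1 (1912 CPM), Ahnak (1868 CPM) and Sptan1 (562 CPM). Signalling members included Rack1, a ribosome-bound adaptor, with 1969 CPM, Gnas with 1343 CPM, and the small GTPases Rac1 (679 CPM), Rhoa (618 CPM) and Cdc42 (461 CPM).

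Of 52 listed genes of platelets and their parent megakaryocytes, 22 were in the set. Over other scalings, set sizes and sets of libraries, 1 of them without the 3 deepest libraries, this number ran from 6 to 25. With 1 sham library left out it was 20 to 22. Chemokines of the alpha granule were Ppbp, with 723 CPM in the lowest library, a median of 1381 and 4965 in the highest, and Pf4, which ran from 272 through 543 to 1555 CPM. Adhesion members were Thbs1 (thrombospondin 1) with a mean of 1235 CPM, Vwf (von Willebrand factor) with 962 CPM, and Itga2b and Itgb3, the chains of the fibrinogen receptor, with 526 and 533 CPM. Tubb1, the platelet tubulin, averaged 508 CPM, and the tetraspanin Cd9 934 CPM. Plek (954 CPM), Fermt3 (446 CPM), Alox12 (417 CPM) and Gng11 (568 CPM) act in platelet signalling and integrin activation. Gp9, a chain of the von Willebrand factor receptor, stood at rank 378 with 297 CPM.

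Platelet genes were high in the 3 deepest libraries. Itga2b had 1532, 1274 and 2180 CPM in day 8 numbers 4, 5 and 6, and 55.5 to 264 CPM in the other 9. Thbs1 had 2566, 2188 and 7239 CPM in those 3 and 182 to 499 CPM elsewhere. The groups of values did not overlap for either gene. Of the 22 platelet genes 19 were higher in each of the 3 deepest libraries than in each of the other 9, as were 42 of all 300 and 4.6% of 4111 genes with enough counts for testing. None of the 22 was lower in each of the 3, as were 11 of all 300 and 1.48% of the 4111. The ratio of means was 1.29 to 12.7, with a median of 2.81, against a median of 0.944 over the 300. The ranking that chose the 300 included these 3 libraries, so a gene could enter through them alone. Itga2b, for 1, lay below the 364.7 CPM of rank 300 in each of the other 9. The counts and ratios of members are thus partly set by the ranking, a selection that the 4111 genes did not go through. The class held 3.72% of counts in these 3 libraries and 1.17% in the other 9, and without the 3 libraries the whole platelet list had a mean of 1.41% in place of 2.15%. Depth and platelet transcripts moved together here, and they did so in ligated mice too, where the libraries numbered 4 to 6 of day 8 were also the deepest (661186 to 937963 counts against 167939 to 465744 in the other 9). In those 3 ligated libraries the class held 5.28%, 5.22% and 2.90% of counts, against 0.509% to 1.40% in the other 9 ligated libraries. What the libraries of these numbers share is not stated in the labels, and the part of depth in the result was not tested. Fewer platelets or vesicles and less RNA in each cannot be told apart in bulk libraries, for this class or any other.

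**Figure D2:**
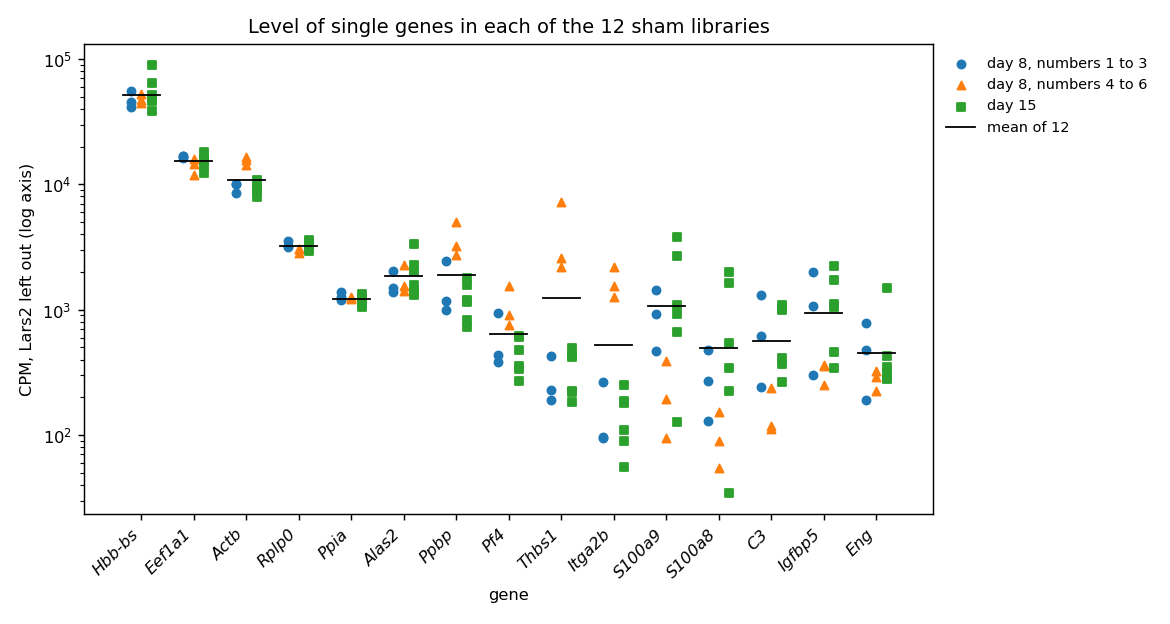
Level of 15 genes in each sham library (points, CPM without Lars2, log axis), with the mean of the 12 libraries as a line. Thbs1 and Itga2b were above all other points in day 8 numbers 4 to 6, S100a8 and S100a9 spread over 57.1-fold and 40.1-fold, and Rplp0 and Ppia stayed within 1.27-fold and 1.32-fold.

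The class of white blood cell genes had 8 members. S100a9 and S100a8, which encode the 2 chains of calprotectin of neutrophils, varied widely. S100a9 had a median of 790 CPM and reached 3805, with the lowest value in day 8 number 6, and S100a8 ran from 34.7 through 249 to 1981 CPM. Both were highest in day 15 numbers 2 and 3. Lyz2 (lysozyme of neutrophils and macrophages) averaged 707 ± 275 CPM. Apoe, placed in the class through the monocyte and macrophage list, is also a liver gene. Apoe held 0.141% of counts in day 15 number 1 and from 0.0298% to 0.0764% in the others. B2m was placed in the class through the list of MHC class I and antigen presentation, which is not a list of white blood cells. It lay at 1354 to 1892 CPM in the 3 deepest libraries and at 600 to 1621 in the other 9. The share of the class is thus not all particular to white blood cells. Cd74 and H2-Aa, of the class II antigen presentation pathway, had 480 ± 127 and 431 CPM, B2m, the light chain of class I molecules, 1092 ± 421 CPM, and Ets1, a lymphocyte transcription factor, 842 CPM. The lineage-defining genes lay lower and differed within a lineage. Of B cells, Cd79a had 175 counts in 11 of 12 libraries and Cd79b 277 in 12. Of T and NK cells, Cd3e had 23 counts in 8, Cd3d 40 in 12 and Lck 224 in 12. Of neutrophils, Ly6g had 10 counts in 5, Mmp8 25 in 9 and Retnlg 125 in 12. Of macrophages, Csf1r had 101 counts in 12 and Cd68 43 in 11. The neutrophil list as a whole held from 0.0965% to 1.07% of counts, the B and plasma cell list from 0.168% to 0.534%, and the T and NK cell list from 0.103% to 0.306%.

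Genes of vessel wall and connective tissue made up most of the class of vessel wall, matrix, fat and liver, with 13 of its 15 members. The share of this class need not all come from outside blood, since Vim is also a gene of blood cells. Vim, an intermediate filament gene of mesenchymal and blood cells, averaged 1519 CPM, Igfbp5 938 ± 714 CPM, Gsn 913 CPM, Bgn 669 CPM, Dcn 494 ± 211 CPM and Col3a1 380 ± 220 CPM. Bgn and Dcn encode small proteoglycans of the matrix, and Col3a1 a fibrillar collagen. Endothelial members were Fabp4 (261 to 1070 CPM, median 576, also a fat cell gene), Eng (452 ± 359 CPM) and Epas1 (903 CPM), and Pecam1 stood at rank 375 with 298 CPM. Eng lay at 1482 CPM in day 15 number 1, at 778 in day 8 number 2 and between 191 and 479 in the other 10. The matrix list held 0.925% ± 0.379 of counts (54 of 54 genes counted) and the endothelial list 0.560% ± 0.180 (41 of 41), both highest in day 15 number 1 with 1.95% and 1.08%. In the other 11 libraries the matrix list held 0.591% to 1.14% and the endothelial list 0.417% to 0.695%.

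Liver, the organ named in the tissue label, was scarcely seen in sham vesicles by the listed hepatocyte genes. Alb, the main plasma protein of hepatocytes, had 65 counts in 8 of 12 libraries, 28.4 CPM on average, and stood at rank 5890. Ttr had 5 counts, Apoa1 13 and Serpina1a 12. The list of secreted hepatocyte proteins held 0.118% ± 0.0552 of counts, from 49 counted genes of 67. Apoe, also a liver gene, was outside this list and was placed with the white blood cells. In the list C3, a complement gene that other cells also express, alone held 0.0566% of counts. C3 ran from 111 through 389 to 1321 CPM. In ligated mice the same list held 1.63% ± 1.85, from 0.158% to 6.52%, and Alb averaged 2608 CPM.

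Markers of other organs were rare or without a count. In kidney Umod, Slc12a1, Slc34a1 and Kap were all at 0, and in pancreas Prss2, Cela2a, Cpa1 and Pnlip were. Snap25, Syt1 and Nefl of neurons, Mog of myelin, Plin1 of fat, Fabp2 and Muc2 of intestine, Sftpa1 and Sftpb of lung and Krt5 of skin were at 0 too. With 0 counts over all 12 sham libraries, no more than the 3-count floor is allowed for each. Other lists had counts in most of their genes. The skeletal muscle list held 0.180% ± 0.0434 of counts (37 of 41 genes counted), the adipocyte list 0.177% ± 0.0782, the glia list 0.154% ± 0.0446, the smooth muscle list 0.145% ± 0.0616 and the heart list 0.112% ± 0.0585 (35 of 35). In the heart list Myh6, the atrial and adult mouse ventricular myosin, had 494 counts in 11 libraries (233 ± 149 CPM). Of skeletal muscle genes, Ckm had 61 counts and Acta1 17, while Ttn, shared with heart, stood at rank 303. Mbp, of myelin and also of blood cells, had 266 counts in 12 libraries.

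**Figure D3:**
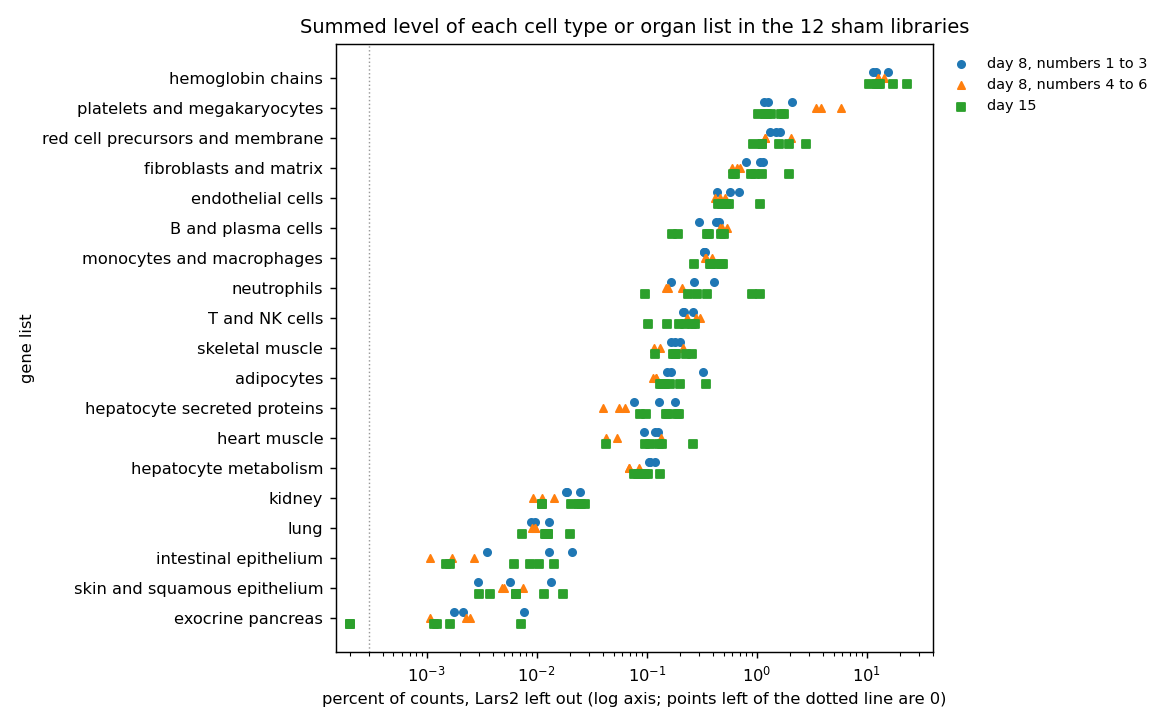
Summed share of counts (percent, log axis, Lars2 left out) of 19 cell type and organ lists in each of the 12 sham libraries (points, by day, with day 8 numbers 4 to 6 marked apart; points left of the dotted line are 0). The hemoglobin list lay at the top and the kidney, lung, gut, skin and pancreas lists below 0.03% in every library.

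Genes tied to vesicles themselves did not lead the set. Among 47 tetraspanin and sorting genes, 4 were in the set. Cd9 was one, and it is also a platelet surface protein that was 2.74 times as high in the 3 deepest libraries as in the other 9. Cd81 stood at rank 607 with 210 CPM and Cd63 at rank 5625 with 30.5 CPM. Cltc (405 CPM), the clathrin heavy chain, and Sdcbp (367 CPM), syntenin, were members. Among 95 nuclear-encoded respiratory chain genes 3 were in the set, Atp5a1 (512 CPM), Atp5b (505 CPM) and Cox7a2l (448 CPM). Of 18 glycolysis genes 4 were: Gapdh (610 ± 101 CPM), Pkm, Aldoa and Gpi1. None of 78 chromatin regulators, 40 interferon response genes or 75 hepatocyte metabolism genes was in the set.

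By annotation all but 2 processed pseudogenes were annotated as protein coding, and the median exon length was 3155 bases against 4358 over genes with a sham count. Ribosomal protein members had a median of 1775.5 bases and platelet members 3636. When levels were divided by exon length 202 of the 300 stayed among the 300 highest. Gm20594, a predicted gene of 449 exon bases at rank 12 by CPM, ran from 1192 to 7312 CPM.

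Steadiness was measured as the SD of log2 CPM between the 12 libraries after the part that Poisson counting gives was taken out. Over the 300 genes the median was 0.289, and the median coefficient of variation was 0.220. In 124 genes the highest library was less than 2-fold above the lowest, and in 57 it was over 4-fold above. Translation and iron genes were the steadiest classes, with median SDs beyond counting of 0.209 for translation factors, 0.215 for ribosomal proteins and 0.199 for ferritin and iron. Hemoglobin had 0.318, red cells 0.509, platelets 0.864 and the vessel, matrix, fat and liver class 0.757. Without the 3 deepest libraries the platelet median was 0.486 and the ribosomal protein median 0.223.

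The 8 steadiest genes were Gpi1, Atp5b, Oaz1, Cltc, Ppia, Calm3, Gnai2 and Aldoa, and in the first 4 the spread did not exceed Poisson counting. Oaz1, which limits polyamine synthesis, ran from 551 through 612 to 700 CPM. Ppia (cyclophilin A) ran from 1052 through 1232 to 1392 CPM, a 1.32-fold range. Rplp0, of the ribosomal stalk, held 2837 to 3608 CPM. The 8 most variable genes were S100a8, Itga2b, Thbs1, Rpl27-ps3, S100a9, Itgb3, Itga6 and C3, with SDs beyond counting from 1.78 down to 1.23. For the 4 platelet genes the high values were those of the 3 deepest libraries. Rpl27-ps3 is a processed pseudogene whose counts could come from near-identical copies. It was at 8.19 CPM in day 15 number 1 and ran from 306 to 619 CPM in the other 11 libraries. Scd1, Igfbp5 and Igf2 were the next most variable, with 17.1-fold, 8.88-fold and 10.2-fold between the lowest and highest library. Scd1, a fatty acid desaturase of fat and liver, was at 1398 CPM in day 8 number 1 and 1113 in day 15 number 3 and at or below 396 elsewhere.

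**Figure D4:**
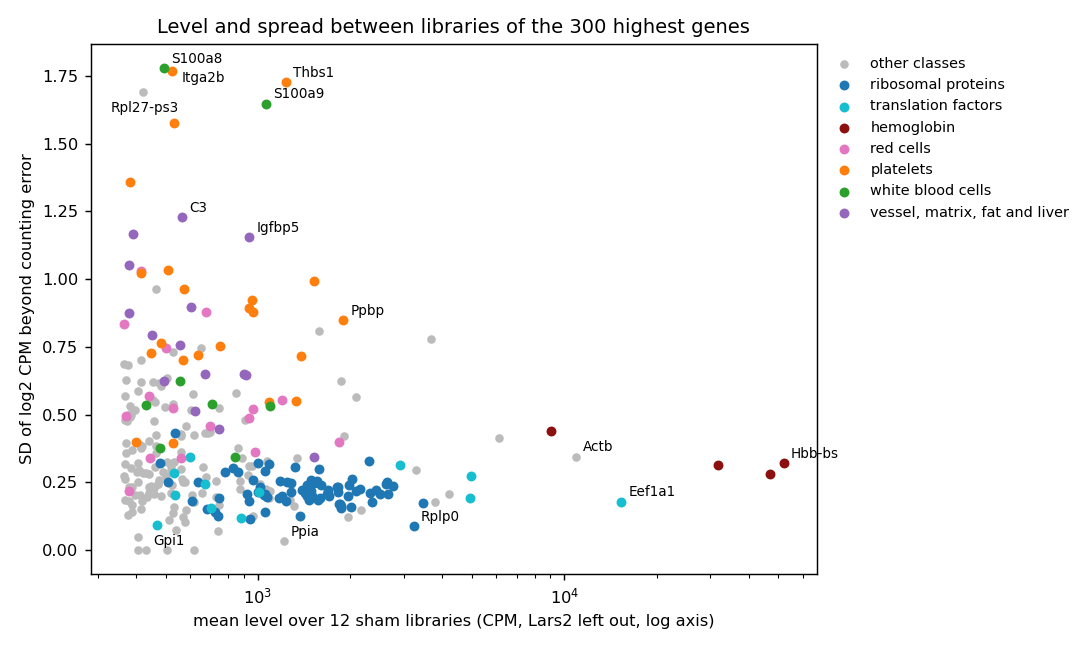
Mean level (CPM, log axis) against the SD of log2 CPM between 12 sham libraries beyond counting error, 1 point per gene of the 300, coloured by class. Ribosomal proteins lay between 0.0886 and 0.434, while S100a8, Itga2b, Thbs1, Rpl27-ps3 and S100a9 lay above 1.6.

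Of the 300 genes 163 were in the own 300 highest of every sham library and 221 in at least 9, and 5 were in at most 3. In all, 552 genes entered the own 300 highest of any sham library. The 300 highest of day 8 and of day 15, each ranked alone, shared 259 genes, and those of sham and ligated mice shared 253. The 47 genes in the ligated list but not the sham list included 7 predicted genes, 3 of them the highest of the 47, as well as Alb, Trf, Hpx and Apob, which are liver products of plasma, and the platelet genes Gp9, F13a1 and Clec1b. Predicted genes held 45.8% of counts in ligated day 8 number 3, 14.2% in ligated day 15 number 1 and 21.4% in ligated day 15 number 2, against 1.06% to 5.89% in the other 9 ligated libraries and 0.471% to 1.06% in the sham libraries. In these 3 libraries the 300 genes held 25.9%, 33.4% and 30.8% of counts. Without them the ligated list shared 256 genes with the sham list, and 3 of its 44 other genes were predicted genes. Genes in the sham list only included Bgn, Col3a1, Cd74, H2-Aa, Igf2 and 5 histone genes, Hist1h4h, Hist1h4c, Hist1h1e, Hist1h4d and Hist1h4n.

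Across the 300 genes, Spearman's rho between pairs of sham libraries was 0.571 to 0.968 with a median of 0.775 over 66 pairs. It is a correlation across genes, which are not independent replicates. Among the 3 deepest libraries rho was 0.917 to 0.968, between them and the other 9 it was 0.571 to 0.805, and among the other 9 it was 0.655 to 0.927.

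**Figure D5:**
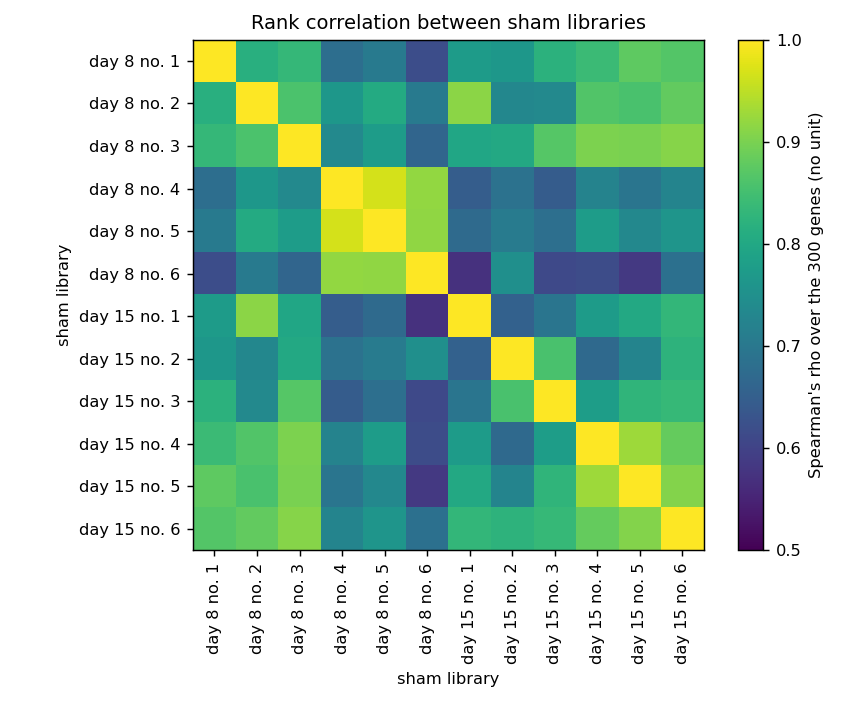
Spearman's rho across the 300 genes for each pair of sham libraries (colour, 0.5 to 1). Day 8 numbers 4 to 6 formed a block with values of 0.917 or more.

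Day 15 was compared with day 8 within sham mice over the whole table. Of 4112 genes tested, all 300 members among them, edgeR's quasi-likelihood test with Benjamini-Hochberg adjustment called 0 (background 0%). At an unadjusted p under 0.05 there were 439 genes, 45 of them members, and DESeq2 called 5 genes. The nearest member was Ctla2a, which was lower at day 15 by a log2 difference of -1.54 (SE 0.397, adjusted p = 0.182 by edgeR). Itga2b (-2.70, SE 0.713) and S100a8 (2.27, SE 0.620) followed with edgeR adjusted p of 0.191 and 0.196. The median difference of the platelet class was -1.04 on the log2 scale against 0.0159 over all genes tested, and the 3 deepest libraries belong to day 8. Without those 3 libraries edgeR again called 0 genes, and 146 passed at an unadjusted p under 0.05.

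Ligation was compared with sham over both days. edgeR called 436 of the 4112 genes (10.6%), 292 higher (7.1%) and 144 lower (3.5%). Of the 300 members 37 were called (12.3%), 24 higher and 13 lower, a share near that background. With the library number as a block, edgeR called 536 genes, 55 of them members. With the block at day 8 alone, where same-numbered samples correlated, it called 502 genes, 49 of them members. Without the 3 ligated libraries rich in predicted genes it called 357 genes, 36 of them members. The ranking of members used the same sham libraries that serve as controls here, and both comparisons share them. Among red cell genes other than hemoglobin 11 of 16 were higher in ligated mice and 0 lower, with a median log2 difference of 0.68 over the class against 0.000817 over all genes tested. Gpx1, an antioxidant enzyme, rose by 1.01 (SE 0.170, adjusted p = 0.000185), Slc4a1 by 1.16 (SE 0.296, adjusted p = 0.0112) and Alas2 by 0.71 (SE 0.188, adjusted p = 0.0136). The class had 13 calls with the block, 12 without the 3 ligated libraries rich in predicted genes, and 9 without the day 8 libraries numbered 4 to 6 of both treatments, and none of these was lower.

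Among the hemoglobin chains Hbb-bs passed the edgeR test, with a log2 difference of 0.52 (SE 0.168, adjusted p = 0.0433). The other chains did not, with 0.42 for Hba-a1 (SE 0.162), 0.45 for Hbb-bt (SE 0.204) and 0.30 for Hba-a2 (SE 0.160), and edgeR adjusted p of 0.0973, 0.161 and 0.261. With the block Hba-a1 passed as well (0.42, edgeR adjusted p = 0.0403), but not with the block at day 8 alone (edgeR adjusted p = 0.108). The split within a pair is uncertain, as above, and with the counts of each pair summed neither pair passed: the beta pair differed by 0.51 (SE 0.171, edgeR adjusted p = 0.0524) and the alpha pair by 0.35 (SE 0.158, edgeR adjusted p = 0.169). Beta chains held 7.35% ± 3.29 of counts in ligated mice, from 3.46% to 13.6%, a range that spanned the sham values, and alpha chains 8.35% ± 3.57. None of the 78 ribosomal protein genes was called, with or without the block. Of the 22 platelet genes edgeR called 0, and with the block 1, which was higher, or 2 with the block at day 8 alone.

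Other members called higher by edgeR, in order of p, were Serinc3 (log2 difference 0.73, SE 0.136), Adipor1 (0.70, SE 0.138), Ubb (0.55, SE 0.110) and C3 (1.93, SE 0.394). C3 had a mean of 1760 CPM in ligated mice against 566 in sham mice. In the cytoskeletal class 6 of 43 were lower and 0 higher. With the block 6 were lower and 1 higher, and without the day 8 libraries numbered 4 to 6 of both treatments 4 were lower. Members called lower with the smallest p were Ets1 (-0.74, SE 0.150), Ablim1 (-0.57, SE 0.127), Macf1 (-0.54, SE 0.126), Map4 (-0.61, SE 0.146) and Ctnnb1 (-0.55, SE 0.143), which encodes beta catenin. When the day 8 libraries numbered 4 to 6 of both treatments were left out, Ablim1 differed by -0.47 (edgeR adjusted p = 0.0812) and Ctnnb1 by -0.57 (edgeR adjusted p = 0.0580), in a fit with 6 fewer libraries.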

How the data were processed

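The deposited data were 1 table of expected counts for 24 libraries, in whole numbers throughout. STAR and RSEM are the tools in the submitters' processing notes, without versions. These notes name hg38, whereas the identifiers are mouse genes, so the authors' build was not established. GENCODE M21 (GRCm38) held 21860 of the 21960 identifiers and gave coordinates and exon lengths. No source states whether strand entered the counting, so overlapping and near-identical genes are uncertain.

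CPM were computed from the deposited counts with Lars2 left out of the total. Counts were tested with edgeR 4.0.16 (filterByExpr, minimum count 10 and total 15, TMM, quasi-likelihood test, 1 mean per group of 6, all 24 libraries, Benjamini-Hochberg threshold 0.05), and DESeq2 1.42.0 was an alternative. On counts simulated for the sham day comparison (3904 genes) edgeR called 45 of 96 genes changed by 1 on the log2 scale and 87 of 90 changed by 2. Libraries of a group differed beyond sampling noise (chi-square per degree of freedom at least 1.66), so none was treated as a repeat. Sham libraries held 8339 to 12171 genes with a count.

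Pairing was checked by the correlation of same-numbered libraries' deviations from their group means. It was 0.165 to 0.327 for sham and ligated libraries of day 8, over 0.1 in all 6 pairs, which ties them by number, but -0.0310 to 0.114 at day 15 and -0.124 to 0.120 between sham days. The labels give the numbers without saying what they share.

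Genes were named by rule: the 20 highest, up to 4 members of each list, the 8 steadiest and 8 most variable, the 3 on each side of rank 300, up to 5 called genes per direction and a set of markers. Other members were named with their values in view, to describe their class. The 300 genes, the lists and the tests were chosen with earlier results of these data known, and 88 members outside the lists were grouped by hand after seeing the genes. Alternatives were other scalings, filters, set sizes and tools, single libraries left out, and, added after seeing the data, day 8 numbers 4 to 6 left out together, the 3 ligated libraries with over 10% of counts on predicted genes left out together, the block at day 8 alone, and each globin pair summed.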

Additional observations from a re-analysis of the deposited data

Results flagged for a closer look

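In groups of 6 libraries, the highest or lowest library was set apart where its gap to the nearest other library exceeded 0.625 of the group's range. Of 152 groups of values tested 11 passed, and chance flags about 1 in 20 groups.

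Within day 8, number 6 had 7239 CPM of Thbs1 against 191 to 2566 in the other 5, and 1277 CPM of Slc4a1 against 371 to 708. The monocyte and macrophage list held 0.389% in day 8 number 4 against 0.329% to 0.343%, and the adipocyte list 0.327% in day 8 number 1 against 0.115% to 0.166%.

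Within day 15, number 1 was set apart in 5 lists. It was highest in the endothelial list (1.08% against 0.442% to 0.555%), the matrix list (1.95% against 0.608% to 1.11%), the list of giant cytoskeletal scaffold proteins (2.14% against 1.27% to 1.45%) and the neuron list (0.133% against 0.0630% to 0.0849%), and lowest in the proteasome and ubiquitin list (1.07% against 1.26% to 1.34%). The adipocyte list held 0.346% in day 15 number 3 against 0.133% to 0.201%, and the vesicle tetraspanin and sorting list 0.654% in day 15 number 6 against 0.697% to 0.721%. The causes were not tested.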

How the results depend on the processing

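Leaving out 1 sham library at a time kept 293 to 297 of the 300 genes, and their share stayed between 44.9% and 45.9%. The share was 41.2% with TMM library sizes, 23.4% with Lars2 in the total, 36.6% without hemoglobin and 72.5% per kilobase of exon. The 100 highest genes, all 100 of them members, held 34.1%, and 500 genes held 51.2%. The median spread beyond counting was 0.244 in day 8 alone, and 0.269 to 0.303 with 1 library left out. For sham day 15 against day 8, DESeq2 called 5 genes and edgeR without its filter on low counts 150, of which 28 were members. Leaving out 1 library gave 0 to 1 calls, the 1 call without day 15 number 2 or number 4. For ligation, edgeR without the filter called 1041 genes. Same-numbered sham and ligated samples correlated in every pair at day 8, but not at day 15, nor did sham samples between days. In that order, 3, 1 and 1 of 6 samples correlated best with their own number. With the number as a replicate block edgeR called 536 genes for ligation (55 members) and 0 for day (0 members). The 10 genes named for the size of their p, Slc4a1, Alas2 and Hbb-bs were called with either form of the block. Leaving out 1 library gave 349 to 553 calls for ligation, and 29 to 48 members. The ligation fit on the groups compared alone is the main fit, so it was not run again. Depth limits low genes most: the median member had 34 counts in the shallowest sham library.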
